A study of Rattus norvegicus with 6 samples.

Results

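A set of 9 genes induced by type I interferon were followed across 6 rat liver libraries: Irf7, Isg15, Usp18, Mx1, Mx2, Ifit2, Ifit3, Oas1a and Rsad2. They were taken by symbol, and all 9 were found among the 16209 rows of the deposited table and passed the filter on low values that left 14639 genes tested. The 6 libraries were bulk RNA-seq of fibrotic rat liver, 3 from rats treated with vehicle and 3 from rats that received the biflavone ginkgetin, found in ginkgo leaves, at 10 mg/kg/day. Fibrosis was thus common to both groups, and no liver without fibrosis entered the comparison. The sources used here do not state strain, age, sex, the agent that caused the fibrosis or the length of treatment. The question put by the study was what ginkgetin does in fibrotic liver.

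Type I interferons bind the receptor pair encoded by Ifnar1 and Ifnar2, and the kinases JAK1 and TYK2 then phosphorylate transcription factors, STAT2 among them. With IRF9 these bind interferon-stimulated response elements, repeats of the letters GAAA, in the promoters of antiviral genes. In liver, hepatocytes, Kupffer cells and other resident cells can all switch on such genes, and their level is widely used as a readout of interferon exposure. In bulk tissue, fewer cells of a type and less RNA per cell cannot be told apart.

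The response element itself can be read in the rat promoter sequences. The RefSeq promoter table (build GRCr8, 250 bases before to 50 bases after each start site) held entries for 5 of the 9 genes: Ifit3, Oas1a, Irf7, Rsad2 and Mx1. The motif GAAANNGAAA, searched on both strands, was present in the entries of 4 of them, all but Mx1, against 3.92% of all 33469 entries of the same length. The 30 bases around each match are shown 5′ to 3′ along the gene, with the matched letters in capitals, because this element is the one through which interferon signalling is known to act on such genes.
Ifit3, chr1:241527272-241527301, + strand: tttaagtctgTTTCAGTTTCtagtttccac
Oas1a, chr12:41330418-41330447, + strand: ctctcggGAAATGGAAACTGAAAatcttgt
Irf7, chr1:205800073-205800102, - strand: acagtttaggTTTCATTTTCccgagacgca
Rsad2, chr6:48788248-48788277, - strand: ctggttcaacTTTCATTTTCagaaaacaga
In Oas1a 2 overlapping matches shared a GAAA and lay on the strand of the gene, from 41 to 26 bases before the start site of the entry. In Ifit3, Irf7 and Rsad2 the single match lay on the opposite strand, so it reads as TTTC repeats, and it began 44, 69 and 147 bases before the start site. The Irf7 stretch, and 25 of the 30 bases of the Oas1a stretch, fall inside the span that RefSeq gives for the whole gene, which is longer than the transcript used for the entry. A match is a description of the sequence, and no binding was measured here.

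The libraries held 13372367 to 14933853 reads in genes, close to equal in depth. Values below are normalized reads, the deposited unit, in the order vehicle 1, 2, 3 and ginkgetin 1, 2, 3. After the normalization the library totals were 15863575, 11768875 and 8265117 in vehicle and 16510702, 16250451 and 16991873 in ginkgetin, so the third vehicle library was scaled down most. That library also stood apart in its tissue markers. The summed level of 12 hepatocyte markers was 456250 there, against 1682000 to 2996700 in the other 5 libraries, and that of 7 myofibroblast and matrix markers was 123950, against 2877 to 13027. The comparison of the 9 genes is therefore given with and without it. Fold changes of other genes are from all 6 libraries except where stated.

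With all 6 libraries, none of the 9 genes differed between ginkgetin and vehicle beyond the spread of the libraries. Limma called 0 of 9 at an adjusted p under 0.05, beside 0.0137% of all genes tested. On the recovered reads edgeR called 0 of 9, beside 0.00% of all genes, and DESeq2 called 0 of 9, beside 9.43%. At an unadjusted p under 0.05 limma found 0 of 9 lower, beside 13.2% of all genes, and 0 of 9 higher, beside 7.00%. The ranges of the groups overlapped for all 9, while 16.1% of all genes were lower without overlap and 11.4% were higher without overlap. The vehicle libraries spread widely: the highest exceeded the lowest by 1.56-fold for Ifit2 and by 10.8-fold for Mx2. In the ginkgetin libraries the same ratio ran from 1.21 for Irf7 to 1.95 for Mx2.

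Irf7, the transcription factor that amplifies interferon production, had 288 to 1015 reads per library. Its values were 1204, 758 and 276 in vehicle and 379, 432 and 356 in ginkgetin. The first and second vehicle libraries lay above every ginkgetin library and the third lay below them all. The means were 746 ± 464 in vehicle and 389 ± 38.6 in ginkgetin (SD, n = 3), a log2 fold change of -0.70 with a standard error of 0.48 (limma, adjusted p = 0.428). The 95% confidence interval ran from -1.81 to 0.40.

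Isg15 encodes a ubiquitin-like protein that is attached to other proteins, and Usp18 encodes the protease that removes it and also restrains signalling at the interferon receptor. Isg15 was at 368, 229.5 and 114 in vehicle and at 207, 165 and 178 in ginkgetin. The order of the vehicle libraries was that of Irf7, and the ginkgetin libraries lay between the second and the third. Its means were 237 ± 127 and 183 ± 21.2 (SD, n = 3), a log2 fold change of -0.22 with an interval from -1.16 to 0.72 (limma, adjusted p = 0.784). Usp18 was at 317, 220.4 and 119 in vehicle and at 155, 159 and 204 in ginkgetin. Its highest ginkgetin library was the third, whereas in Isg15 it was the first and in Irf7 the second. The log2 fold change was -0.24 with an interval from -1.10 to 0.62 (limma, adjusted p = 0.733).

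Mx1 and Mx2 encode dynamin-like GTPases that block virus replication. Their reads are uncertain to the extent that counting could split or share reads between these similar copies, and the same holds for Ifit2 with Ifit3 and for Oas1a within the Oas1 cluster. Mx1 was at 292, 159.7 and 69.4 in vehicle and at 95.1, 112 and 79.2 in ginkgetin, the same layout as Irf7. The means were 174 ± 112 and 95.5 ± 16.5 (SD, n = 3), a log2 fold change of -0.64 with an interval from -1.80 to 0.51 (limma, adjusted p = 0.483). Mx2 was at 925, 511 and 85.9 in vehicle and at 634, 642 and 329 in ginkgetin. Here the first 2 ginkgetin libraries lay above the second vehicle library, and the third vehicle library was far below all others. Mx2 was one of the 2 genes with a higher mean log2 level in ginkgetin, by 0.57, with the widest interval of the 9, from -1.22 to 2.36 (limma, adjusted p = 0.699).

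Ifit2 and Ifit3 encode proteins that bind foreign RNA or the complexes that hold it. Ifit2 was at 390.3, 279 and 249.8 in vehicle and at 289, 238 and 209 in ginkgetin. It varied least of the 9 among vehicle libraries, and the second and the third vehicle library both lay inside the ginkgetin range. The log2 fold change was -0.31 with an interval from -0.90 to 0.29 (limma, adjusted p = 0.516). Ifit3 was at 225, 98.1 and 84.7 in vehicle and at 151, 115 and 94.0 in ginkgetin. Only the first vehicle library exceeded the ginkgetin libraries, and the log2 fold change was -0.07 with an interval from -1.04 to 0.90 (limma, adjusted p = 0.938), or 0.18 with quantile scaling.

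Oas1a encodes a 2′-5′-oligoadenylate synthetase, which activates the antiviral RNase L, and Rsad2 encodes viperin, a radical SAM enzyme that makes a chain-terminating nucleotide. Oas1a was at 173, 112 and 44.8 in vehicle and at 96.2, 165 and 118 in ginkgetin. The second ginkgetin library came close to the first vehicle library, and the mean log2 level was 0.36 higher in ginkgetin with an interval from -0.80 to 1.52 (limma, adjusted p = 0.706), or -0.15 with equal library totals. Rsad2, the least covered of the 9 with 34 to 138 reads per library, was at 106, 54.9 and 84.7 in vehicle and at 57.5, 63.6 and 42.1 in ginkgetin. Unlike in any other of these genes, the third vehicle library was the second highest of the 6. The log2 fold change was -0.55 with an interval from -1.44 to 0.34 (limma, adjusted p = 0.443).

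**Figure D1:**
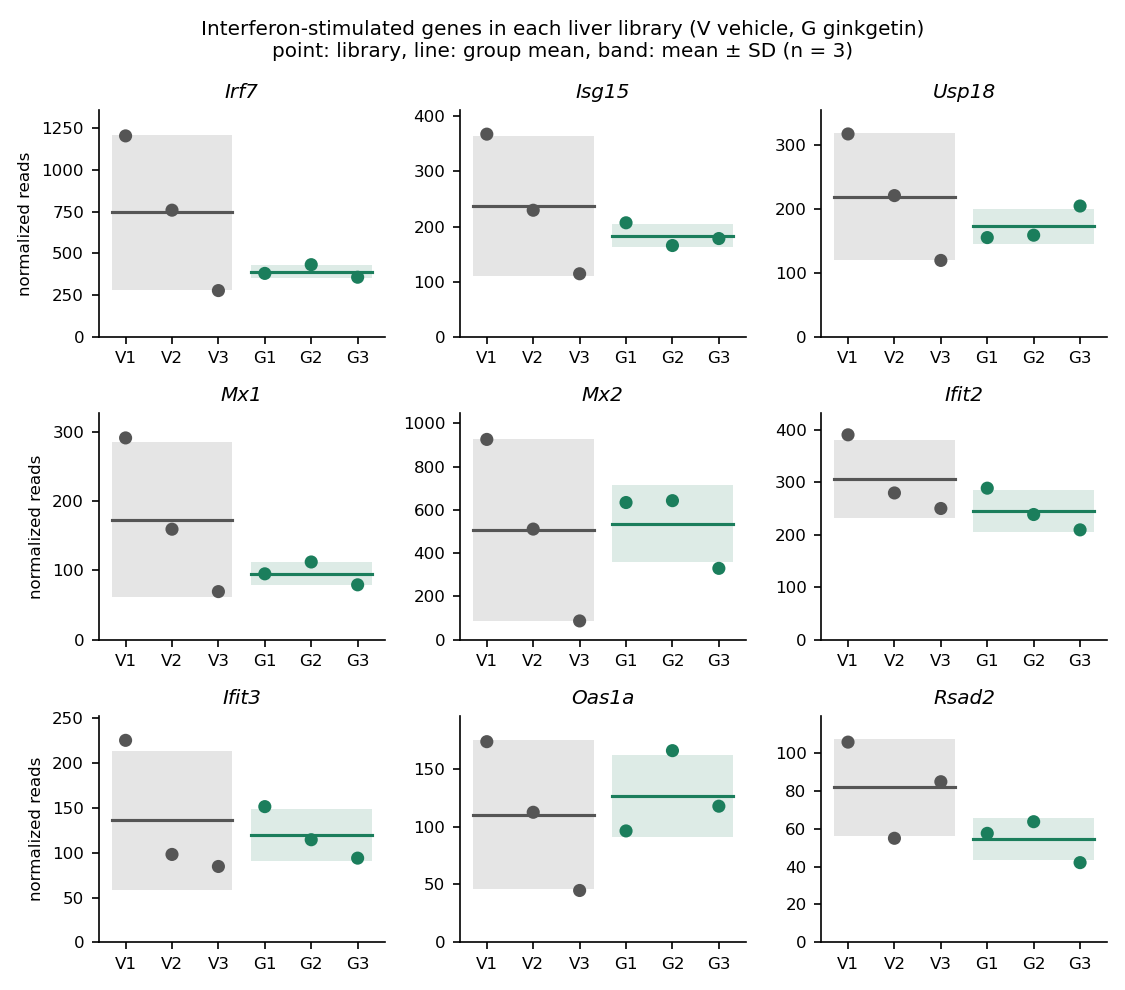
Normalized reads of each of the 9 interferon-stimulated genes (vertical axes, linear, from 0) in the 3 vehicle (V) and 3 ginkgetin (G) libraries, with the group mean as a line and mean ± SD as a band (n = 3). The first vehicle library is the highest point in all 9 panels, and the vehicle bands are wider than the ginkgetin bands for every gene.

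The first vehicle library was thus the highest of the 6 for 9 of 9 genes, whereas 7.47% of all genes tested were highest there. The third vehicle library was the lowest for 7 of 9, and 30.1% of all genes tested were lowest there. The other 2, Ifit2 and Rsad2, were lowest in the third ginkgetin library. Averaged over the 9 genes after centring each on its own mean log2 level, the level was 0.91, 0.15 and -0.76 in the vehicle libraries and -0.03, 0.02 and -0.29 in those of ginkgetin. This is 0.10 ± 0.83 in vehicle and -0.10 ± 0.17 in ginkgetin (SD, n = 3), and the 3 ginkgetin libraries lie between the second and the third vehicle library.

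Most pairs of the 9 genes were positively correlated from library to library. Over the 6 libraries the Pearson correlation of the log2 levels was above 0.5 for 30 of the 36 pairs, with a median of 0.72 and a range from -0.05 to 0.99. The closest pair was Mx1 with Irf7 (r = 0.99, n = 6 libraries), followed by Isg15 with Usp18 (r = 0.925) and with Irf7 (r = 0.921). Mx2 followed Oas1a most closely (r = 0.91), and Ifit2 followed Ifit3 (r = 0.86). Rsad2 was the least like the rest, with a median r of 0.35 to the other 8, and both pairs below 0 were its pairs with Mx2 and Oas1a. These values are descriptions, since all pairs share the same 6 libraries and the single first vehicle library is high in every gene. They also rest on the deposited scaling. Its vehicle totals, 15863575, 11768875 and 8265117, fell in the same order as the mean level of the 9 genes. The share of correlated pairs over all genes was not computed.

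Without the third vehicle library, all 9 genes had lower mean log2 levels in ginkgetin, beside 7466 of all 14639 genes tested. The library left out was the lowest of the 6 for 7 of the 9, so the vehicle means of those 7 rise by the omission itself. The median log2 fold change of the 9 was -0.50, while over all genes tested it was -0.01. With all 6 libraries the median of the 9 had been -0.24, beside -0.02 over all genes. Limma called 0 of 9 at an adjusted p under 0.05, beside 0.574% of all genes. At an unadjusted p under 0.05, 4 of 9 were lower, beside 10.0% of all genes, and 0 of 9 were higher, beside 5.68%. The same 4, Irf7, Mx1, Isg15 and Usp18, were the ones whose 2 vehicle libraries both lay above all 3 ginkgetin libraries, beside 19.3% of all genes that were lower without overlap.

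Irf7 showed the largest difference of the 9. Taken back from the mean log2 levels, the first 2 vehicle libraries were at 2.46-fold the ginkgetin level. The other ratios in this paragraph were obtained in the same way. The log2 fold change was -1.30 with a standard error of 0.25 and an interval from -1.85 to -0.74 (limma, unadjusted p = 0.00045, adjusted p = 0.0548). That adjusted p passed 0.05 in 5 of the alternatives run, with edgeR (0.033), DESeq2 (0.00101), equal library totals (0.00185), quantile scaling (0.0332) and a pseudocount of 5 (0.0476). Those settings called 1.36%, 5.02%, 3.64%, 0.704% and 1.12% of all genes, in that order. In the remaining alternatives, all of them limma fits, Irf7 did not pass, and its adjusted p reached 0.233. Mx1 followed with a 2.27-fold ratio and a log2 fold change of -1.18 from -1.96 to -0.40 (limma, adjusted p = 0.143), and it passed with DESeq2 (adjusted p = 0.041) and with equal library totals (0.0401). For Isg15 the ratio was 1.59 and the log2 fold change -0.67 (limma, adjusted p = 0.286), and for Usp18 it was 1.54 and -0.62 (limma, adjusted p = 0.315). The intervals of these last 2 ended at -0.040 and -0.0032, just below 0.

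The other 5 genes had smaller differences without the third vehicle library, and the groups still overlapped in each. The log2 fold changes were -0.50 for Rsad2, -0.44 for Ifit2, -0.43 for Mx2, -0.34 for Ifit3 and -0.18 for Oas1a, and their adjusted p values in limma ran from 0.447 to 0.848. Mx2 and Oas1a had been the 2 genes with a higher mean in ginkgetin, so leaving out that 1 library turned their direction. In Mx2 the third vehicle library held 0.12 of the mean of the other 2 vehicle libraries, the lowest ratio of the 9, and in Rsad2 it held 1.06 of it. Leaving out the first vehicle library instead also changed values and directions. Irf7 was then at -0.24 and Mx1 at -0.15 on the log2 scale (limma, adjusted p = 0.743 and 0.854), down in size from -0.70 and -0.64 with all 6 libraries. The median of the 9 genes was then 0.08, and Isg15, Usp18 and Ifit3 turned to 0.17, 0.08 and 0.37. Ifit3 also turned, to 0.09, without the third ginkgetin library.

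**Figure D2:**
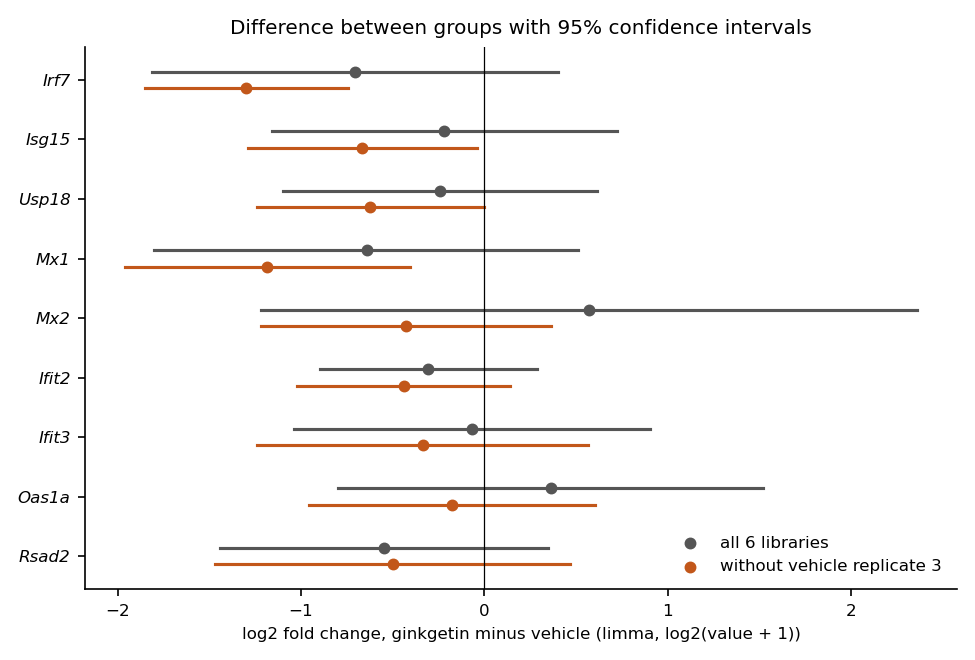
Log2 fold change of each gene, ginkgetin minus vehicle, on the log2(value + 1) scale of limma (horizontal axis), with its 95% confidence interval as a line, from all 6 libraries (grey) and without vehicle replicate 3 (orange). All 9 grey intervals cross 0, and the orange points all lie below 0, with Irf7 at -1.30 farthest.

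The values depend on how libraries are scaled, and equal totals raise the third vehicle library relative to the deposited scaling. As CPM, with every library scaled to the same total of reads in genes, Irf7 was at 75.9, 64.4 and 33.4 in vehicle and at 23.0, 26.6 and 21.0 in ginkgetin. On this scale all 3 vehicle libraries lay above all 3 ginkgetin libraries, and the same was true of Mx1, at 18.4, 13.6 and 8.39 against 5.76, 6.91 and 4.66. Isg15 was at 23.2, 19.5 and 13.8 against 12.5, 10.2 and 10.5, and Usp18 was at 20.0, 18.7 and 14.4 against 9.37, 9.75 and 12.0. With Ifit2 and Rsad2, 6 of 9 genes were lower in ginkgetin without overlap, beside 24.9% of all genes tested. The 9 genes together took 0.0252%, 0.0206% and 0.0137% of the reads in vehicle and 0.0125%, 0.0129% and 0.00947% in ginkgetin. Equal totals also moved the median log2 fold change of all genes to -0.53, so the changes of the 9 are read relative to that shift. Their own median on this scale was -0.76, and limma called 0 of 9 at an adjusted p under 0.05 with all 6 libraries. At an unadjusted p on this scale 3 of 9 were lower, beside 20.0% of all genes, and without the third vehicle library 6 of 9 were, beside 14.6%.

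**Figure D3:**
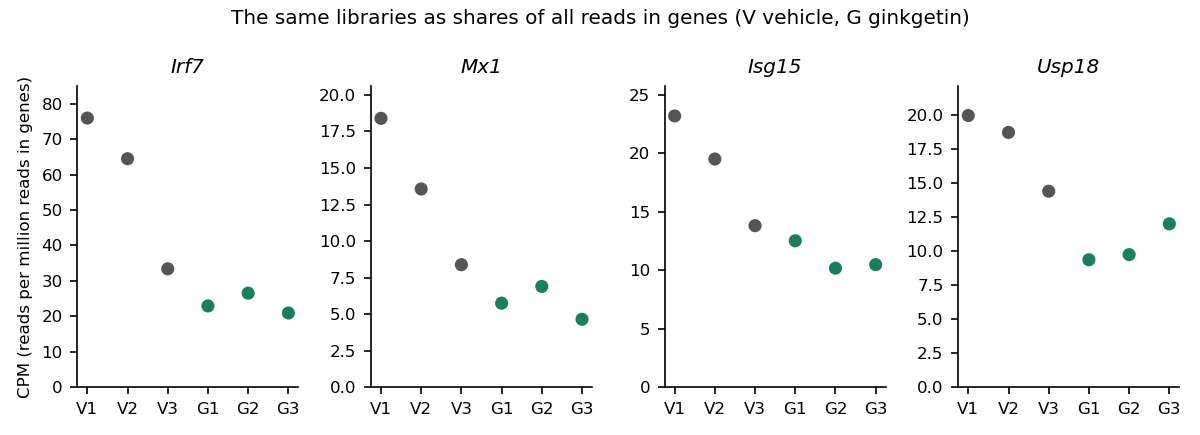
Reads as CPM, each library scaled to the same total of reads in genes (vertical axes, linear, from 0) for Irf7, Mx1, Isg15 and Usp18 in each vehicle (V) and ginkgetin (G) library, 1 point per library. On this scale every vehicle point lies above every ginkgetin point, closest for Isg15 at 13.8 against 12.5.

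Levels of cell type markers were set beside the 9 genes for each library. B and plasma cell markers, of which 7 of 7 were in the table, summed to 906, 1870 and 199 in vehicle and to 693, 334 and 599.97 in ginkgetin, so the third vehicle library was lowest for them too. Markers of plasmacytoid dendritic cells, a main source of type I interferon, summed to 1247, 1444 and 1946 in vehicle and to 1155, 795 and 668 in ginkgetin, with 7 of 8 in the table. Irf8 makes up most of that sum, and Siglech, the most specific of them, was at 3.07 to 13.0 in vehicle and 6.19 to 8.10 in ginkgetin. T and NK cell markers (11 of 12 in the table) summed to 689 to 1533 in vehicle and 557 to 760 in ginkgetin. Cd4 (892) and Cd8a (375) made up most of that sum in the third vehicle library, where Cd3d, Cd3e and Cd3g were at 30.1, 35.0 and 45.4. Macrophage and Kupffer cell markers (13 of 14) summed to 6699 to 59390 in vehicle and 5444 to 10880 in ginkgetin. Lyz2 (28708) and Gpnmb (16728) made up most of the macrophage sum in the third vehicle library. Of the 13 markers, 8 had lower and 5 higher mean log2 levels in ginkgetin. The 5 were Cd163, Marco, Clec4f, Vsig4 and Timd4. The 12 hepatocyte markers, all in the table, summed to 456250 to 2341200 in vehicle and 1904000 to 2996700 in ginkgetin, and 7 of 8 myofibroblast and matrix markers to 10951 to 123950 and 2877 to 5527. The 6 cholangiocyte markers summed to 1337 to 2561 in vehicle and 298 to 545 in ginkgetin, and the 7 neutrophil markers to 407 to 1644 and 78.7 to 345. For the plasmacytoid dendritic cell, matrix, cholangiocyte and neutrophil markers these sums did not overlap between the groups. Those of the 9 genes did, at 1129 to 4000 and 1609 to 2092. No marker in the table was at 0 in all 6 libraries. The part of any of these cell types in the levels of the 9 genes was not tested.

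**Figure D4:**
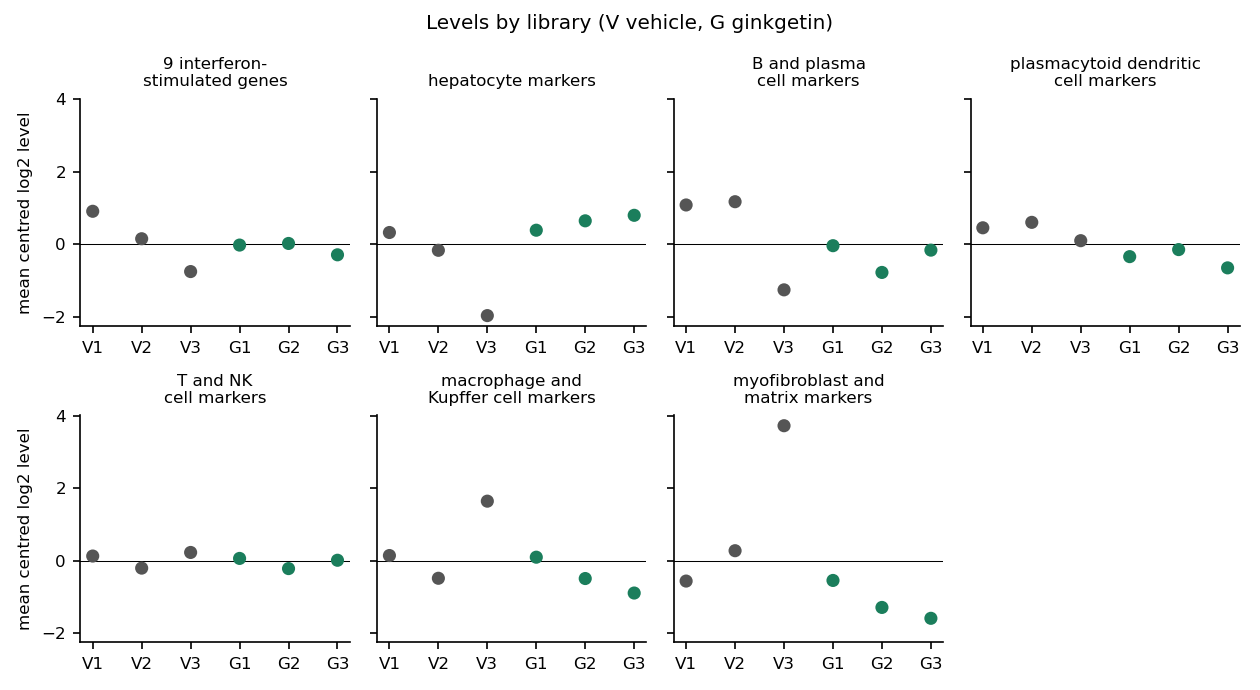
Mean centred log2 level (vertical axes, the same in all panels) of the 9 interferon-stimulated genes and of 6 lists of cell type markers in each vehicle (V) and ginkgetin (G) library. The third vehicle library is lowest for the 9 genes (-0.76), the hepatocyte markers and the B and plasma cell markers, and highest for the macrophage and the matrix markers.

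Upstream of the 9 genes, the interferons themselves were almost without reads. Of 11 interferon genes listed, 3 had a row in the table: Ifnb1 with 3 reads in the third vehicle library, Ifnk with 3 reads in the second, and Ifng with 3 reads in the third vehicle and 2 in the third ginkgetin library. All the other libraries had 0 reads of them, which allows up to 3 reads at these depths and covers counting error only, and none was tested. The receptors and the signalling proteins were readily detected, and limma called 0 of 12 at an adjusted p under 0.05, with 3 lower and 0 higher at an unadjusted p. Those 3 were Ifngr1 and Ifngr2, the chains of the interferon gamma receptor, and Ifnlr1, the specific chain of the interferon lambda receptor. Over all genes tested, 13.2% were lower and 7.00% higher at an unadjusted p (limma). These shares stand beside the counts of each list below as well. Ifngr1 was at 738, 1123 and 2707 in vehicle and at 603, 620.1 and 461 in ginkgetin, which did not overlap (log2 fold change -1.23, limma, adjusted p = 0.188). Ifnlr1 was at 30.8, 42.4 and 58.9 against 21.0, 5.78 and 3.71 (log2 fold change -2.29, limma, adjusted p = 0.139). DESeq2, which called 9.43% of all genes, gave adjusted p values of 0.0489 for Ifngr1 and 0.0423 for Ifnlr1.

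Stat2 and Irf9, genes of the complex that binds the response elements, were not called by limma. Irf9 was at 375, 256 and 183 in vehicle and at 292, 286 and 301 in ginkgetin, so its vehicle libraries had the order of Irf7 (log2 fold change 0.17, limma, adjusted p = 0.759, and -0.35 with equal library totals). Its log2 fold change was -0.08 without the third vehicle library. Stat2 was 0.60 higher in mean log2 level in ginkgetin (limma, adjusted p = 0.359) and overlapped between groups.

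Of 40 other antiviral interferon-stimulated genes tested, limma called 0 at an adjusted p under 0.05, with 9 lower and 1 higher at an unadjusted p and a median log2 fold change of 0.03. That median was -0.16 without the third vehicle library. Ly6e, Lgals3bp, Ifitm2 and Epsti1 had the smallest p values of that list, and their pattern was not that of Irf7 or Mx1. Ly6e, a membrane protein that restricts or aids viruses, was at 1140.0, 1362 and 1396 in vehicle and at 636, 462 and 334 in ginkgetin. Its 3 vehicle libraries stood together well above the ginkgetin libraries (log2 fold change -1.49 with a standard error of 0.28, limma, adjusted p = 0.0804). Lgals3bp, a secreted glycoprotein that binds galectins, was at 1139, 1504 and 1370.0 against 413, 605 and 259 (log2 fold change -1.72, limma, adjusted p = 0.0824). Ifitm2, which blocks virus entry, was at -1.84 on the log2 scale (limma, adjusted p = 0.101), and Epsti1 at -1.80 (adjusted p = 0.127). Without the first vehicle library the adjusted p of Ly6e, Lgals3bp and Ifitm2 was 0.041, 0.0406 and 0.0462 in limma, so leaving out that library changed the call for these 3. With all 6 libraries DESeq2 gave adjusted p values of 0.000736 for Ly6e, 0.000906 for Lgals3bp, 0.00338 for Ifitm2 and 0.0107 for Epsti1, and limma with equal library totals gave 0.046 for Lgals3bp.

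Sensors of foreign nucleic acid with their adaptors and kinases, 14 genes tested, had 4 lower and 1 higher at an unadjusted p and 0 at an adjusted p (limma). Tmem173, which encodes the adaptor STING, was at 96.1, 97.3 and 137 in vehicle and at 48.6, 30.1 and 42.1 in ginkgetin (log2 fold change -1.44, limma, adjusted p = 0.111), and Ikbke, a kinase that activates IRF3 and IRF7, was at -1.06 (adjusted p = 0.134). Tlr7, an RNA sensor of endosomes, was at -1.43 (adjusted p = 0.21), and at -0.82 without the third vehicle library. In the other direction Ddx58, the cytosolic RNA sensor RIG-I, was at 45.1, 46.6 and 22.1 in vehicle and at 65.2, 184 and 92.8 in ginkgetin (log2 fold change 1.50, limma, adjusted p = 0.17). Neither Tmem173 nor Ddx58 overlapped between the groups, and DESeq2 gave adjusted p values of 0.00461 and 0.0404 for them. Among 7 other interferon regulatory factors, limma called 0 at an adjusted p, with 1 lower and 1 higher at an unadjusted p. Of the 7, 4 had lower and 3 higher mean log2 levels in ginkgetin, with a median log2 fold change of -0.002. Irf8 was at -0.94 (limma, adjusted p = 0.169), Irf5 at -1.43 (adjusted p = 0.255) and Irf4 at -1.04 (adjusted p = 0.261). Irf5 was at -0.72 without the third vehicle library.

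ISG15 is attached to proteins by a short chain of enzymes. Of 5 such genes tested, limma called 0 at an adjusted p under 0.05 and 2 were higher at an unadjusted p, with a median log2 fold change of 0.44. That median was 0.15 without the third vehicle library. Trim25, an ISG15 and ubiquitin ligase, was at 316, 443 and 107 in vehicle and at 502, 532 and 597.5 in ginkgetin (log2 fold change 1.13, limma, adjusted p = 0.233), and 0.54 without the third vehicle library. Arih1, a partner of that ligase system, was at 0.59 (adjusted p = 0.234). Ube2l6, the conjugating enzyme, was at 0.17 and Uba7, the activating enzyme, at -0.26 (adjusted p = 0.669 and 0.686), and Ube2l6 changed sign with equal library totals (-0.35).

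Among 20 genes induced mainly by interferon gamma, 4 were lower and 4 higher at an unadjusted p and 0 at an adjusted p (limma). Gbp3, a guanylate-binding protein of a family of similar copies, was at 66.4, 66.5 and 11.7 in vehicle and at 5.53, 4.63 and 3.71 in ginkgetin. All ginkgetin libraries were low, at 3 to 5 reads each, and the third vehicle library lay between them and the other 2. The log2 fold change was -2.79 (limma, adjusted p = 0.12). Without the third vehicle library Gbp3 fell by 3.60 on the log2 scale (limma, adjusted p = 0.0403). It was the 1 call by limma in that fit among the 108 pathway genes tested, beside 84 of all 14639 genes (0.574%). DESeq2 gave adjusted p values of 0.00254 for Gbp3 and 0.00461 for Gbp4 with all 6 libraries. Gbp4 was at -1.51 (limma, adjusted p = 0.111) and Psmb9, a subunit of the immunoproteasome, at -0.70 (adjusted p = 0.166). Igtp, an immunity-related GTPase, was at 708, 472 and 260.2 in vehicle and at 798, 1408 and 1228 in ginkgetin (log2 fold change 1.33, limma, adjusted p = 0.139, and 0.0461 without the first vehicle library). Negative regulators of the pathway, 10 tested, had 0 at an unadjusted p (limma), with Ptpn11 at 0.42, Tnfaip3 at -0.56, Ptpn6 at -0.35 and Ptpn2 at 0.26, of which Ptpn11 and Ptpn2 changed sign with equal library totals (-0.10 and -0.26).

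**Figure D5:**
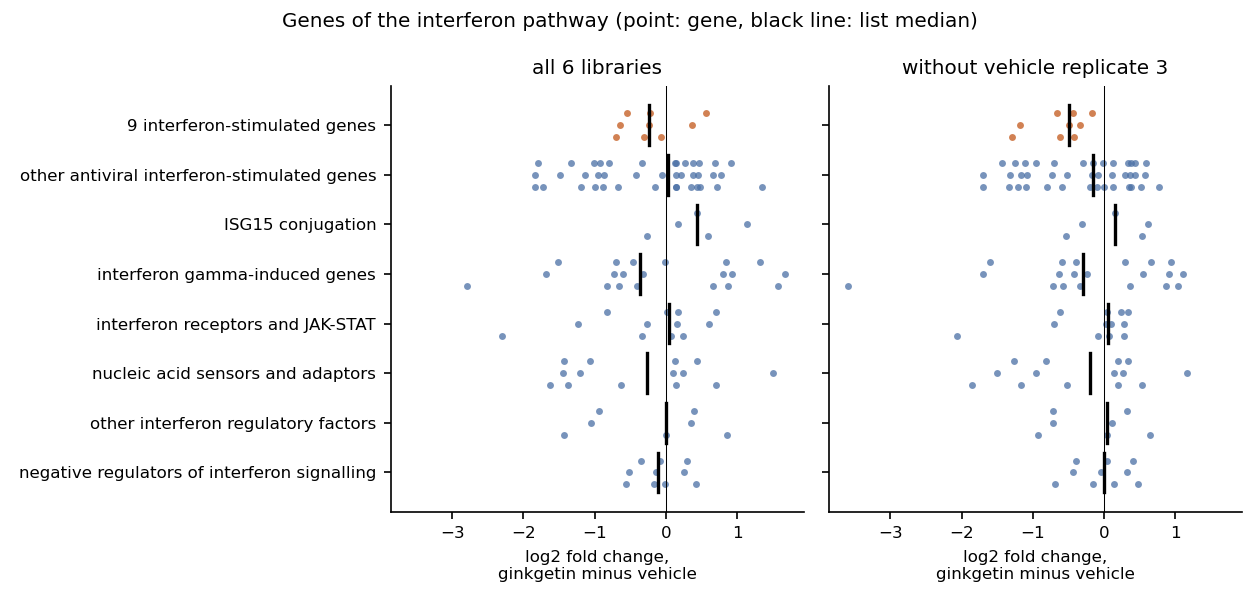
Log2 fold change, ginkgetin minus vehicle (horizontal axes), of each tested gene of the 9 interferon-stimulated genes (orange) and of 7 other lists of the pathway (blue), with the list median as a black line, from all 6 libraries (left) and without vehicle replicate 3 (right). The median of the 9 genes is -0.24 on the left and -0.50 on the right.

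In total, 108 pathway genes besides the 9 were tested. In limma 21 were lower and 9 higher at an unadjusted p, beside 13.2% and 7.00% of all genes tested, and 0 at an adjusted p. Their median log2 fold change was -0.01, beside -0.02 over all genes. Of genes with a mean of at least 50 normalized reads, those whose pattern over the 6 libraries was most like the mean of the 9 included Vps37b (r = 0.97), Cog7 (0.96), Dact2 (0.95) and Setd6 (0.95), over 6 libraries. Vps37b was at 310, 221 and 176 in vehicle and at 233, 224 and 189 in ginkgetin, with the first vehicle library highest and the third one lowest as in Irf7. The adjusted p of these 4 in limma was 0.759 or above, and their groups overlapped. Within the pathway lists the profile nearest to the 9 genes was that of Oas2 (r = 0.96), at 52.2, 18.3 and 6.75 in vehicle and at 22.1, 13.9 and 8.66 in ginkgetin, followed by Adar (0.88), Oas1b (0.87), Irf9 (0.85) and Rtp4 (0.83).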

How the data were processed

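Per the labels' protocols, total RNA went into SMARTER mRNA-seq libraries. The submitters' processing notes name rat build mRatBN7.2. The deposited values are a signal, normalized reads per gene, and the sources used here do not give the scaling, aligner, counting tool or strand setting. Dividing a column by its smallest positive value gave whole numbers within 0.02 for 99.67% of values, which were taken as reads, and 53 of 16209 rows that were not whole were rounded.

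The columns for ginkgetin were matched by name and number. The other 3 carry letters that are not in the labels and were taken as vehicle, the one remaining group, and every direction rests on this. The labels do not say that replicates are separate animals, so a p-value measures only how these samples spread, which may be technical. No 2 libraries were duplicates (lowest chi-square per degree of freedom 49.9 over 15 pairs).

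Limma 3.58.1 in R 4.3.3, with trend and robust moderation, was fitted on log2(value + 1). It took in 14639 genes that reached a value of 1 in no fewer than 3 libraries, with Benjamini-Hochberg adjustment over all of them and calls at 0.05. Fold changes on this scale understate those of low genes. The fit was repeated without vehicle replicate 3. Alternatives were other pseudocounts, filters and scalings, limma without trend, edgeR 4.0.16 (quasi-likelihood, TMM) and DESeq2 1.42.0 on recovered reads, a replicate block and leaving out each library. In the fit without vehicle replicate 3, only ginkgetin libraries were left out in turn. The fitting code was tested on simulated data. The 9 genes and all lists were chosen with earlier results of these data known. All 9 are named, with up to 4 genes of smallest p per list, Stat2, Irf9, Ifnb1 and Ifng, and genes from the 6 of most similar pattern. A few genes that this rule picks are not reported here. Other genes named with values were chosen after their values were seen. Promoter letters come from RefSeq build GRCr8, another build than that of the reads.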

Additional observations from a re-analysis of the deposited data

How the results depend on the processing

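For the 9 genes with all 6 libraries, 136 alternative values kept their direction and stayed without an adjusted call, and 8 changed sign. Those were Ifit3 with quantile scaling (0.18), Oas1a with equal library totals (-0.15) and, on leaving out 1 library, Isg15 (range -0.67 to 0.17), Mx2 (-0.43 to 1.28), Ifit3 (-0.34 to 0.37), Oas1a (-0.18 to 0.79) and Usp18 (-0.62 to 0.0779). Without vehicle replicate 3, no alternative that was run reversed any of the 9. Oas1a had almost no difference in some, at -0.000187 on leaving out a ginkgetin library and -0.0372 with quantile scaling. Only ginkgetin libraries were left out further in the fit without vehicle replicate 3. Whether a direction would hold without the first vehicle library as well was therefore not tested. Of the alternative values of the 9 genes in that fit, 110 stayed without an adjusted call and 7 passed it (5 for Irf7, 2 for Mx1). The cause of these changes was not tested. Reads per library, 34 to 138 for Rsad2, limit what can be detected for the lowest genes.

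The median of the 9 genes ran from -0.50 to 0.08 when each library was left out in turn. The median over the other pathway lists was -0.53 with equal library totals (all 6 libraries). Without vehicle replicate 3 it was -0.34 with equal library totals and ran from -0.16 to -0.0139 when a ginkgetin library was also left out. The number of the 9 genes at an unadjusted p under 0.05 with all 6 libraries was 3 with equal library totals (20.0% of all genes lower) and ran from 0 to 4 on leaving out a library. Without vehicle replicate 3 it was 6 with equal library totals (14.6% of all genes lower), 2 with quantile scaling and 2 with limma without trend or robust moderation, and 2 to 3 on leaving out a ginkgetin library. At an adjusted p the count there was 1 with a pseudocount of 5, 2 with equal library totals, 1 with quantile scaling, 1 with edgeR and 2 with DESeq2.

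The number of all genes called with all 6 libraries (2) was 5 with a pseudocount of 5, 94 with equal library totals, 1 with quantile scaling, 27 with limma without trend, 0 with edgeR (2126 lower and 789 higher at an unadjusted p), 1380 with DESeq2, and 0 to 696 on leaving out a library. Without vehicle replicate 3 (84) it was 46 and 164 with pseudocounts of 0.5 and 5, 1 without a filter, 41 with a filter of 10, 533 with equal library totals, 0 with limma without trend (1507 lower and 587 higher at an unadjusted p), 199 with edgeR, 735 with DESeq2 and 1 to 390 on leaving out a ginkgetin library.

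Among other genes named, DESeq2 called Ifnlr1, Ifngr1, Tmem173, Ddx58, Ly6e, Lgals3bp, Ifitm2, Epsti1, Gbp3 and Gbp4 with all 6 libraries (adjusted p from 0.000736 to 0.0489), which limma did not. Signs changed with equal library totals for Ube2l6 (-0.35), Ptpn11 (-0.10), Ptpn2 (-0.26) and Irf9 (-0.35), and with quantile scaling for Cog7 (0.0936), Dact2 (0.0386) and Setd6 (0.0972). On leaving out 1 library the values ran from -0.53 to 0.00921 for Uba7, -0.0822 to 0.43 for Irf9, -0.28 to 0.12 for Vps37b, -0.14 to 0.11 for Cog7, -0.60 to 0.12 for Dact2 and -0.31 to 0.16 for Setd6.

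Replicate numbers did not pair the libraries: same-numbered deviations from the group means correlated at -0.16, 0.03 and -0.21. With the replicate block, 0 genes were called by limma with all 6 libraries (1608 lower and 774 higher at an unadjusted p) and 0 without vehicle replicate 3 (1038 and 518), the median of the 9 was -0.24 and -0.33, and 2 of the 9 were at an unadjusted p without vehicle replicate 3. In that last fit the third block held a ginkgetin library only. Its fold changes are therefore those obtained on leaving out the third ginkgetin library (median of the 9 also -0.33), not a separate alternative.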

Other observations

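A ratio of 2 of the 9 genes within a library does not depend on how libraries are scaled, and these ratios were examined after the values had been seen. Of the 36 ratios among the 9 genes, 5 did not overlap between the groups with all 6 libraries (13.9%), a smaller share than the 28.4% over all 82452061 pairs of tested genes with reads in every library. The values of these 5 are therefore a description only, and each of them set Mx2 or Oas1a against Mx1, Irf7 or Usp18. Oas1a over Irf7 was 0.144, 0.148 and 0.162 in vehicle and 0.254, 0.383 and 0.33 in ginkgetin. The vehicle libraries were within a narrow band for this ratio, the third included, although their Irf7 levels ranged over 4.36-fold. Mx1 over Oas1a was 1.68, 1.42 and 1.55 in vehicle and 0.989, 0.678 and 0.674 in ginkgetin. Oas1a over Usp18 was 0.547, 0.509 and 0.376 in vehicle and 0.621, 1.04 and 0.576 in ginkgetin.

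Both ratios with Mx2 also separated the groups. Mx1 over Mx2 was 0.315, 0.313 and 0.807 in vehicle and 0.15, 0.175 and 0.241 in ginkgetin, and Mx2 over Irf7 was 0.768, 0.673 and 0.311 in vehicle and 1.67, 1.49 and 0.924 in ginkgetin.

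At the other end of the pathway lists from Oas2, Tlr9 (r = -0.89) and Tap2 (r = -0.82) ran opposite to the mean of the 9 genes over the 6 libraries, given as a description of these libraries. Both had few reads, 3 to 18 per library for Tlr9 and 0 to 15 for Tap2, with the highest in vehicle replicate 3.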
